A study of Homo sapiens with 12 samples.

Results

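HLE is a line of human hepatocellular carcinoma cells. The response described here is that of HLE cells depleted of ATF4 by siRNA (siATF4) to the kinase inhibitor Sorafenib (Srf), measured as the difference between 2 siATF4 Srf and 2 siATF4 DMSO libraries. These 4 of the 12 RNA-seq libraries of the series were chosen by their labels. The remaining 8 libraries come from cells given a control siRNA (siCtrl) or siRNAs against YAP and TAZ (siY/T), with 2 libraries for each siRNA in DMSO, the vehicle, and 2 in Sorafenib. The labels give 5 µM Sorafenib and no time, whereas the study's text on such cultures of this line names a slightly higher concentration and an exposure of less than a day. Every group received an siRNA, and the labels name neither the siRNA sequence nor the culture that a library came from, so the p-values measure the spread between libraries. The study's methods speak of biological triplicates, whereas 2 libraries per group were analysed here, and whether these 2 are separate cultures is not stated.

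ATF4 is the transcription factor of the integrated stress response. When eIF2α kinases sense amino acid shortage, unfolded protein, haem shortage or viral RNA, general translation falls while the ATF4 mRNA is still translated, and ATF4 then pairs with C/EBP and AP-1 partners on response elements of genes for amino acid supply, tRNA charging, redox balance and stress feedback. Sorafenib inhibits RAF kinases and several receptor tyrosine kinases, and the transcripts that follow ERK signalling are a usual readout of such inhibition. The comparison of treated with untreated siATF4 cells asks which part of the drug response is seen with little ATF4, and the comparison with siCtrl cells asks where that response differs.

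ATF4 mRNA was at 96.2 and 100.7 CPM (reads per 1000000 reads on genes) in the siATF4 DMSO libraries and at 84.5 and 90.6 CPM in the siATF4 Srf libraries. In siCtrl cells it was at 248 and 249 CPM with DMSO and at 484 and 492 CPM with Sorafenib. The 4 siATF4 libraries were thus the lowest of these 8, with a mean of 39.6% of the siCtrl level in DMSO and of 17.9% in Sorafenib. With the drug, the ATF4 transcript changed by -0.17 ± 0.04 on the log2 scale in siATF4 cells and by 0.97 ± 0.04 in siCtrl cells, and the difference between these responses was -1.14 ± 0.06 (SE; limma adjusted p = 2.84e-07). The siRNA thus left part of the ATF4 mRNA in place, and ATF4 protein was not measured in these files. In what follows, "without ATF4" and "with ATF4" stand for siATF4 and siCtrl cells.

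Reads on genes numbered 41408348 to 53619732 across the 12 libraries, so that 1 read stood for 0.0187 to 0.0242 CPM. Of 14 hepatocyte markers only *FGB* and *CPS1* were above 1 CPM in any of the 4 siATF4 libraries, with *FGB* at 68.5 and 72.2 CPM in DMSO and 65.5 and 64.4 CPM in Sorafenib, whereas *ALB*, *APOA2*, *APOB*, *TTR*, *TF* and *AFP* had no read in any of them. The labelled liver origin is therefore visible in few of these markers. *FGB* was at 368 and 431 CPM in the siCtrl DMSO libraries. The intermediate filament genes *KRT8*, *KRT18* and *VIM* were all above 1000 CPM in these 4 libraries, and of the leukocyte and endothelial markers *CD68* alone was above 1 CPM.

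Of the 13515 genes tested, 768 rose with Sorafenib in siATF4 cells (5.68% of the genes tested) and 399 fell (2.95%), where a call needed an unadjusted limma P under 0.05 and a size of 0.58 or more on the log2(CPM + 0.5) scale. In bulk libraries, fewer cells in a given state and less RNA per cell cannot be told apart. Rises made up 65.8% of the calls, and 54.7% after quantile normalization, with 552 rises and 457 falls. In siCtrl cells the same thresholds gave 1665 rises (12.3%) and 696 falls (5.15%). The median change over all genes tested was 0.029 in siATF4 cells and 0.052 in siCtrl cells, and the SD over genes was 0.353 and 0.444.

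The responses of the siATF4 and siCtrl cells, which share no library, were partly alike. Across the 13515 genes they had a Pearson r of 0.534, a description in which genes are not independent replicates. A total of 459 genes rose in both, 59.8% of those raised in siATF4 cells and 27.6% of those raised in siCtrl cells. A total of 111 fell in both, 27.8% and 15.9% of the respective lists. Genes chosen as raised in siCtrl cells, with a median rise of 0.781 there, had a median change of 0.364 in siATF4 cells, and genes chosen as lowered, with a median of -0.73, had -0.231. Chosen the other way, genes raised in siATF4 cells, with a median of 0.756 there, had 0.672 in siCtrl cells. Genes lowered in siATF4 cells, with a median of -0.761 there, had -0.267 in siCtrl cells. Each choice favours the cells in which it was made.

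Where the difference between the responses was itself tested, at a limma Benjamini-Hochberg adjusted P under 0.05 and a difference of at least 0.58, it was higher in siATF4 than in siCtrl cells for 582 genes (4.31%) and lower for 1077 genes (7.97%). Of the 1665 genes raised in siCtrl cells, 610 (36.6%) had a lower response in siATF4 cells, and of the 696 lowered in siCtrl cells, 303 (43.5%) had a higher one. The siCtrl libraries enter both the choice of these genes and the difference. Most of the 768 genes raised in siATF4 cells had no called difference from siCtrl cells, 616 in all, while 111 had a higher and 41 a lower response. Of the 399 lowered genes, 197 had no called difference, 197 had a lower response than in siCtrl cells and 5 (*ETV5*, *IDI1*, *CCL2*, *FOSL1* and *SPRY4*) fell less. Of the 399, 15 were called as raised in siCtrl cells.

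**Figure D1:**
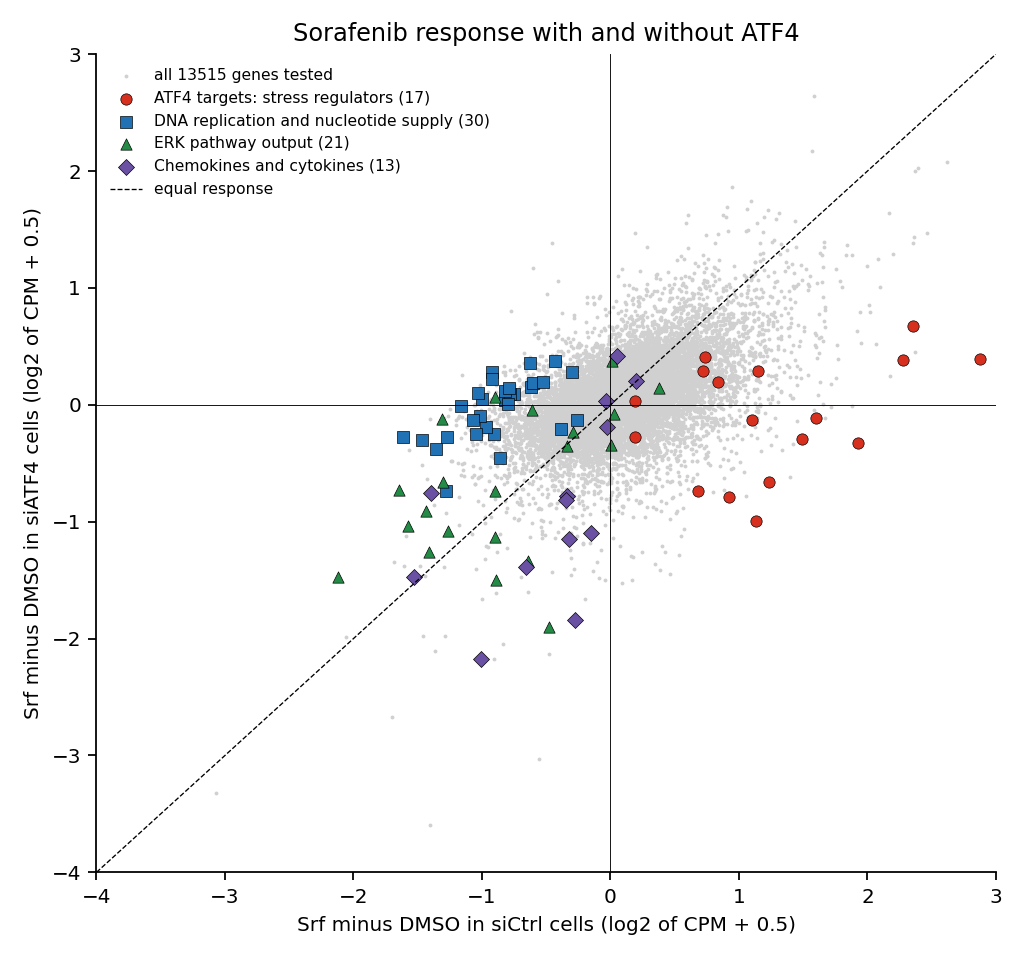
Change with Sorafenib in siATF4 cells (vertical axis) against siCtrl cells (horizontal axis), both as log2(CPM + 0.5), for the 13515 genes tested (grey) and the members of 4 gene lists (symbols), with the line of equal response dashed. The stress regulators (circles) lie to the right, with a median of 1.14 in siCtrl and -0.11 in siATF4 cells, the replication genes (squares) lie to the left, with medians of -0.89 and 0.02, and most ERK pathway genes (triangles) and chemokines (diamonds) lie below 0 on both axes.

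Stretches of promoter sequence are shown for genes of 2 pathways described further on, targets of ATF4 and genes of DNA replication. Those of the first pathway are 4 genes of the ATF4 target lists and *HERPUD1*, of the ER chaperone list, which carry the core of the C/EBP-ATF response element, searched as TGATGNAA on both strands of the 250 bases before each RefSeq start. Capitals mark the match, and positions are those of GRCh38.p14 from RefSeq, not of the hg19 assembly to which the reads were mapped.
CHAC1, chr15:40953240-40953291, plus strand: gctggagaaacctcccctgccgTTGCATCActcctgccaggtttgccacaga
ATF3, chr1:212565194-212565245, plus strand: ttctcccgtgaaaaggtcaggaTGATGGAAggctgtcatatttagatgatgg
AARS1, chr16:70289664-70289715, minus strand: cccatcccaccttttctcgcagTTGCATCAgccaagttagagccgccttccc
HERPUD1, chr16:56931944-56931995, plus strand: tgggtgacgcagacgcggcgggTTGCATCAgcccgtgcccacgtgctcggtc
ASNS, chr7:97872447-97872498, minus strand: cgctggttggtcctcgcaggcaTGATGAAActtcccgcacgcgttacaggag
The matches begin 209 bases before the start in *CHAC1*, 191 in *ATF3*, 187 in *AARS1*, 176 in *HERPUD1* and 68 in *ASNS*. Of all 35116 promoter windows in the table, 1104 (3.14%) held such a match. It was found in 4 of the 16 stress regulators with a window, in 3 of 9 enzymes of amino acid synthesis, in 3 of 11 aminoacyl-tRNA synthetases and in 1 of 7 amino acid transporters. Among the genes with a lower response in siATF4 than in siCtrl cells it was found in 20 of 808 (2.48%), near the 2.34% of all genes tested with a window. It was found in 12 of 473 genes with a higher response (2.54%). Among genes called in siATF4 cells it was in 23 of 598 raised (3.85%) and 7 of 295 lowered (2.37%). These shares were not tested.

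The genes shown for the second pathway carry a site of the E2F factors, which drive the genes of DNA replication, searched as TTTCCCGC or TTTGGCGC on both strands.
MCM3, chr6:52284887-52284938, minus strand: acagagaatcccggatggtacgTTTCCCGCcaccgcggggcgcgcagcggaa
MCM6, chr2:135876566-135876617, minus strand: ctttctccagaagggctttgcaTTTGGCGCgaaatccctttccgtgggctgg
PCNA, chr20:5126652-5126703, minus strand: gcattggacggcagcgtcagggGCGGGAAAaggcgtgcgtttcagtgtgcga
E2F1, chr20:33686386-33686427, minus strand: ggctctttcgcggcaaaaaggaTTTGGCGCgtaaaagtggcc
These matches begin 174, 152, 59 and 20 bases before the start, and *MCM6* has another 90 bases before it. Such a site was in 677 of the 35116 windows (1.93%) and in 424 of the 10711 genes tested with a window (3.96%). It was in 12 of 26 replication genes with a window, and in 44 of 473 genes (9.3%) with a higher response in siATF4 than in siCtrl cells. Among the genes with a lower response it was in 21 of 808 (2.6%). A match is a description of the letters and not evidence that a factor binds there.

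Most stress regulators that ATF4 is known to activate did not rise with the drug in siATF4 cells. Of the 17 tested members, *ADM2* alone rose and *SESN2*, *CEBPB*, *GDF15* and *STC2* fell, whereas 15 rose and none fell in siCtrl cells. The response was lower in siATF4 than in siCtrl cells for 13 of the 17 and higher for none. The median change over the 17 was -0.11 in siATF4 cells and 1.14 in siCtrl cells, beside 0.03 and 0.05 over all genes tested. In siATF4 cells 5.68% of all genes tested rose and 2.95% fell, so few or no calls in a short list are near these shares in what follows. In siCtrl cells the shares were 12.3% and 5.15%. Of all genes tested, 4.31% had a higher and 7.97% a lower response in siATF4 than in siCtrl cells.

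*DDIT4*, an inhibitor of mTORC1 signalling, was at 8.68 and 7.53 CPM in siATF4 DMSO and at 6.56 and 6.14 CPM in siATF4 Srf libraries, against 16.5 and 17.6 CPM (DMSO) and 65.4 and 67.3 CPM (Sorafenib) in the siCtrl libraries. Its levels with Sorafenib lay above those with DMSO in siCtrl cells and below them in siATF4 cells, and the difference of the responses, -2.25 ± 0.11 (SE; limma adjusted p = 2.13e-07), was the lowest among the called genes that averaged 5 CPM or more over these 8 libraries. *CHAC1*, an enzyme that breaks down glutathione, went from 1.74 and 1.70 to 2.43 and 2.38 CPM without ATF4 and from 3.71 and 3.40 to 18.0 and 20.3 CPM with it. The change of *CHAC1* in siATF4 cells, 0.39 ± 0.14, did not reach the threshold of 0.58, and its difference from the response of siCtrl cells was -1.89 ± 0.19 (limma adjusted p = 1.28e-05).

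*SESN2* and *CEBPB* moved in opposite directions in siCtrl and siATF4 cells. *SESN2*, a sestrin that restrains mTORC1 when leucine is short, was at 23.6 and 23.2 CPM in siATF4 DMSO and 13.7 and 15.7 CPM in siATF4 Srf libraries, and at 9.21 and 9.90 CPM (DMSO) and 23.2 and 23.1 CPM (Sorafenib) in the siCtrl libraries. *CEBPB*, a partner of ATF4 on its response elements, stood at 129.6 and 123 CPM in siATF4 DMSO, above all siCtrl libraries, and at 64.2 and 62.3 CPM with Sorafenib, while the siCtrl libraries had 24.9 and 28.01 CPM (DMSO) and 56.8 and 60.4 CPM (Sorafenib). *CEBPB* thus fell by 0.99 ± 0.08 without ATF4 (limma adjusted p = 6.38e-07) from a raised starting level, to levels close to those of siCtrl cells with the drug. *SESN2* fell by 0.66 ± 0.07 (limma adjusted p = 9.44e-06), a call that was lost without siATF4 Srf replicate 1, at -0.57. The siATF4 DMSO libraries enter both the levels set against siCtrl cells and the drug response, here and for the genes described further on, so a high starting level and a fall are not independent observations.

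*DDIT3*, which encodes the stress factor CHOP, had 108 and 107 CPM in siATF4 DMSO and 97.0 and 101.4 CPM in siATF4 Srf libraries. All of these levels were above those of siCtrl cells, which had 26.2 and 25.2 CPM in DMSO and 80.6 and 77.6 CPM in Sorafenib. The change of *DDIT3* in siATF4 cells was -0.11 ± 0.05, against 1.60 ± 0.05 in siCtrl cells. *TRIB3*, a pseudokinase induced by CHOP and ATF4, was at 70.5 and 78.0 CPM in siATF4 DMSO and 57.8 and 62.9 CPM in siATF4 Srf libraries. These levels lay between those of siCtrl cells, 44.05 and 38.5 CPM in DMSO and 112 and 121 CPM in Sorafenib, and the responses differed by -1.78 ± 0.12.

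*GDF15*, a secreted stress cytokine, fell by 0.78 ± 0.09 in siATF4 cells, from 9.17 and 9.78 to 5.63 and 4.97 CPM, and rose by 0.92 ± 0.09 in siCtrl cells. *STC2*, a secreted glycoprotein of the stress response, fell by 0.73 ± 0.14 without ATF4, from 59.0 and 53.2 to 33.2 and 33.7 CPM. *ADM2*, a peptide hormone of the calcitonin family, was the one member that rose, by 0.68 ± 0.10 from 2.01 and 1.92 to 3.66 and 3.23 CPM (limma adjusted p = 7.79e-05). Its rise in siCtrl cells, from 4.89 and 4.22 to 24.0 and 26.6 CPM, was larger (difference -1.68 ± 0.13), and in siATF4 cells its change was 0.56 with quantile normalization, under the threshold.

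*ATF3*, another stress-induced factor of the same family, changed in the same direction in siATF4 and siCtrl cells. It was at 14.4 and 14.8 CPM in siATF4 DMSO and 19.9 and 19.2 CPM in siATF4 Srf libraries, a change of 0.41 ± 0.06, and at 21.3 and 21.2 CPM (DMSO) and 35.8 and 35.8 CPM (Sorafenib) in the siCtrl libraries, a change of 0.74 ± 0.06. The difference, -0.33 ± 0.08 (limma adjusted p = 0.00685), was below the threshold of 0.58. *NUPR1*, a small stress-induced chromatin protein, was near 0 in siATF4 DMSO (0.0857 and 0 CPM) and stayed under 1 CPM with the drug (0.228 and 0.193 CPM), while siCtrl cells went from 0.876 and 0.954 to 9.82 and 9.91 CPM. At so few reads the called difference for *NUPR1* was lost with edgeR and DESeq2 on whole reads, which in turn called its rise in siATF4 cells, at 2.26 and 2.32 on the log2 scale.

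**Figure D2:**
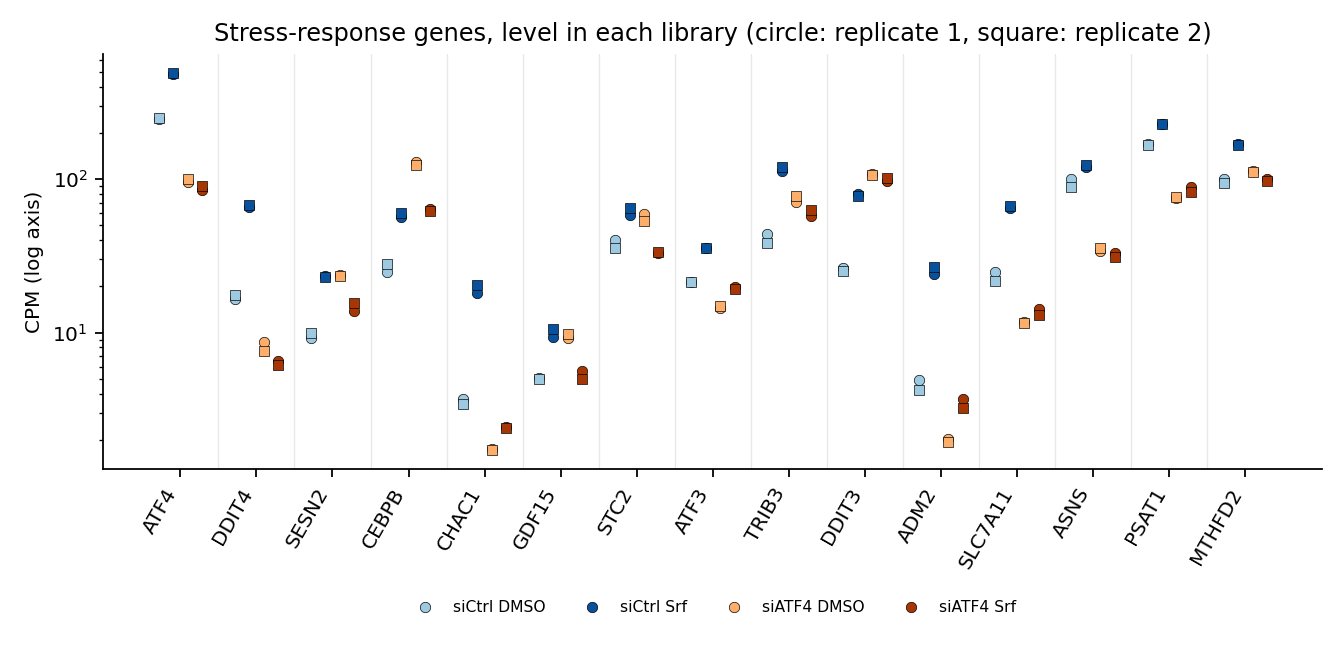
CPM (log axis) of ATF4 and 14 stress-response and amino acid genes in the siCtrl DMSO, siCtrl Srf, siATF4 DMSO and siATF4 Srf libraries, with a circle for replicate 1 and a square for replicate 2. Dark blue points (siCtrl Srf) stand above light blue points (siCtrl DMSO) for each gene shown, whereas dark orange points (siATF4 Srf) stand below light orange points (siATF4 DMSO) for *DDIT4*, *SESN2*, *CEBPB*, *GDF15*, *STC2*, *TRIB3* and *MTHFD2* and above them for *CHAC1*, *ATF3*, *ADM2*, *SLC7A11* and *PSAT1*.

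None of the 12 tested enzymes of amino acid synthesis and one-carbon metabolism reached the threshold in siATF4 cells, in either direction. The shares over all genes tested were 5.68% for rises and 2.95% for falls. In siCtrl cells *MTHFD2* and *CBS* rose, and both had a lower response in siATF4 cells. *MTHFD2*, the mitochondrial folate enzyme, was at 113 and 112 CPM in siATF4 DMSO and 100.4 and 96.5 CPM in siATF4 Srf libraries, and at 99.7 and 94.0 CPM (DMSO) and 169 and 166 CPM (Sorafenib) in siCtrl libraries. *CBS*, which makes cystathionine from homocysteine, had 14.7 and 14.7 CPM (DMSO) and 13.8 and 13.7 CPM (Sorafenib) in siATF4 cells and 51.8 and 46.9 CPM (DMSO) and 95.6 and 104 CPM (Sorafenib) in siCtrl cells. For *CBS* all 4 siATF4 libraries were below all 4 siCtrl libraries.

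*PHGDH*, the first enzyme of serine synthesis, changed by 0.43 ± 0.06 in siATF4 cells and by 0.48 ± 0.06 in siCtrl cells, both under the threshold, and the difference was -0.05 ± 0.09 (limma adjusted p = 0.683). Its levels were 61.4 and 65.5 CPM in siATF4 DMSO, 84.8 and 86.3 CPM in siATF4 Srf, and, in siCtrl libraries, 292 and 264 CPM with DMSO and 383 and 390.3 CPM with Sorafenib. *PHGDH* was thus lower without ATF4, while the difference between the drug responses was smaller than its SE. *PSAT1*, the next enzyme of the same path, changed by 0.17 ± 0.09, and *ASNS*, asparagine synthetase, by -0.12 ± 0.12.

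Among the 8 tested amino acid transporters *SLC7A5* fell and none rose. *SLC7A11*, the cystine importer that supplies glutathione synthesis, was at 11.7 and 11.4 CPM in siATF4 DMSO and 14.2 and 13.1 CPM in siATF4 Srf libraries. With the control siRNA it was at 24.8 and 21.7 CPM with DMSO and 64.5 and 67.1 CPM with Sorafenib. The siATF4 libraries of both treatments were below every siCtrl library, and the change of *SLC7A11* without ATF4 was 0.23 ± 0.14 (limma adjusted p = 0.203), which is -1.26 ± 0.20 relative to siCtrl cells (limma adjusted p = 0.00036).

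*SLC7A5*, the large neutral amino acid carrier, fell by 0.81 ± 0.09 in siATF4 cells, from 48.8 and 49.1 to 27.7 and 27.7 CPM (limma adjusted p = 9.26e-06). In siCtrl cells it went from 114 and 100.5 to 82.5 and 88.0 CPM, a change of -0.33 ± 0.09. Its partner *SLC3A2* changed by 0.09 ± 0.06 in siATF4 cells. The glycine transporter *SLC6A9* changed by 0.04 ± 0.10 without ATF4 and by 0.95 ± 0.10 with it, and this difference was called.

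None of the 14 aminoacyl-tRNA synthetases, which charge tRNAs with their amino acids, reached the threshold in siATF4 cells, beside 5.68% rises and 2.95% falls over all genes. *AARS1*, for alanine, was at 503 and 523 CPM in siATF4 DMSO and 652 and 678 CPM in siATF4 Srf libraries, a change of 0.37 ± 0.05, and rose by 0.91 ± 0.05 in siCtrl cells. *CARS1*, for cysteine, changed by -0.03 ± 0.06 in siATF4 cells and by 0.76 ± 0.06 in siCtrl cells, and was the only member with a called difference, at -0.80 ± 0.09 (limma adjusted p = 2.21e-05). The median change of the 14 was -0.06 without and 0.17 with ATF4.

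Transcripts that follow ERK signalling fell with Sorafenib in siATF4 cells. Of 21 tested members, 12 fell and none rose, against 14 and none in siCtrl cells, and the median change was -0.73 and -0.9 respectively. The falls included the dual-specificity phosphatases *DUSP4*, *DUSP5* and *DUSP6*, which switch ERK off, the sprouty genes *SPRY2* and *SPRY4*, which restrain receptor tyrosine kinase signalling, and the ETS factors *ETV4* and *ETV5*. *DUSP4* reached 1 CPM only in the siATF4 DMSO libraries, at 3.51 and 3.27 CPM, so the filter let it in through the group where it was high.

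*DUSP6* was at 15.9 and 16.5 CPM in siATF4 DMSO and 6.52 and 6.46 CPM in siATF4 Srf libraries, a change of -1.26 ± 0.09 on the log2 scale. With the control siRNA it went from 2.89 and 2.77 to 0.786 and 0.712 CPM. The 2 falls were not called different, at 0.16 ± 0.13 (limma adjusted p = 0.327), but the siATF4 Srf libraries were still above the siCtrl DMSO libraries. With edgeR and DESeq2 on whole reads the difference for *DUSP6* was about 0.60 and 0.61 and passed the threshold, whereas a pseudocount of 1 gave -0.07. *SPRY4* likewise went from 27.5 and 24.6 to 8.61 and 9.55 CPM without ATF4 and from 4.21 and 4.33 to 0.585 and 0.611 CPM with it.

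*EGR1*, an immediate early zinc finger factor that ERK signalling induces, fell most among the members of the ERK and AP-1 lists. It was at 9.56 and 9.27 CPM in siATF4 DMSO and 0.493 and 0.492 CPM in siATF4 Srf libraries, a change of -3.32 ± 0.12 (limma adjusted p = 1.55e-09). In siCtrl cells the libraries had 5.20 and 5.97 CPM with DMSO and 0.202 and 0.244 CPM with Sorafenib, and the difference between the responses was -0.25 ± 0.17 (limma adjusted p = 0.265).

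*IER3*, an early response gene of the survival pathways, fell by 1.502 ± 0.05 in siATF4 cells, from 187 and 184 to 65.0 and 65.1 CPM, and by less in siCtrl cells, from 178 and 174 to 93.7 and 95.5 CPM (difference -0.61 ± 0.08, limma adjusted p = 5.48e-05). The EGF family ligand *HBEGF* fell from 55.6 and 54.7 to 24.2 and 25.6 CPM and the related *EREG* from 4.03 and 3.74 to 1.27 and 1.199 CPM. For *HBEGF*, all 4 siATF4 libraries exceeded the siCtrl libraries, which had 9.66 and 10.0 CPM (DMSO) and 4.94 and 5.19 CPM (Sorafenib).

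*CCND1*, the G1 cyclin downstream of ERK, was among the members with no call in siATF4 cells. It was at 581 and 557 CPM in siATF4 DMSO and 528 and 518 CPM in siATF4 Srf libraries, a change of -0.12 ± 0.08, while siCtrl cells fell from 316 and 302 to 121 and 127 CPM. The response was 1.19 ± 0.11 higher without ATF4 (limma adjusted p = 5.65e-06). The ETS factor *ETV1* changed by 0.07 ± 0.12 and -0.90 ± 0.12, and *ETV5*, *SPRY4* and *FOSL1* fell in both but by less in siATF4 cells. For *FOSL1* the difference lost its call without siCtrl DMSO replicate 1, at 0.577, and for *SPRY4* it lost its call in most fits that left out a library, with values of 0.57 to 0.67, and was 0.30 with a pseudocount of 1. *DUSP4*, *IER3* and *EREG* fell by more in siATF4 cells, and with DESeq2 on whole reads the differences for *DUSP4* (-1.04) and *EREG* (-0.71) kept their direction but missed the adjusted P. That of *EREG* was -0.39 with quantile normalization.

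The AP-1 and other immediate early factors showed 9 falls and no rise among 16 tested members in siATF4 cells, and 5 falls with 1 rise, that of *NR4A1*, in siCtrl cells. The median change was -0.73 in siATF4, -0.26 in siCtrl and -0.74 in siY/T cells, so the lower median was not particular to siATF4 cells. *JUNB*, an AP-1 subunit, was at 26.6 and 27.6 CPM in siATF4 DMSO and 10.4 and 11.9 CPM in siATF4 Srf libraries, a change of -1.24 ± 0.08. In siCtrl cells it stayed at 18.97 and 18.3 CPM (DMSO) and 17.1 and 18.2 CPM (Sorafenib), and the responses differed by -1.17 ± 0.11 (limma adjusted p = 5.76e-06). In siY/T cells *JUNB* changed by -0.74 ± 0.08. The falls without ATF4 also took in *IER2*, with a change of -1.26 ± 0.05, *KLF2* (-1.14 ± 0.15), *FOSB* (-1.61 ± 0.20) and *NR4A2* (-1.19 ± 0.13). *KLF2* was highest in siATF4 DMSO at 6.17 and 7.05 CPM, *FOSB* at 3.88 and 3.43 CPM and *NR4A2* at 2.21 and 1.94 CPM.

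Chemokines and cytokines formed the list with the lowest median change in siATF4 cells, -0.82 over 13 tested members against -0.32 in siCtrl cells. That median was -1.45 with edgeR or DESeq2 on whole reads and -1.24 with a pseudocount of 0.1, and the median difference from siCtrl cells, -0.44, became 0.0022 when at least 5 CPM was asked for in 2 libraries. A total of 9 fell and none rose, namely *CXCL1*, *CXCL2*, *CXCL3*, *CXCL5*, *CCL2*, *CCL5*, *IL6*, *IL11* and *LIF*, and *CXCL2*, *CXCL5*, *CCL2* and *LIF* fell in siCtrl cells. *CXCL1* reached 1 CPM only in the siATF4 DMSO libraries, at 1.864 and 1.485 CPM. The filter thus let *CXCL1* in through the group where it was high, and its fall adds no support to the count. Outside that group *CXCL3* reached 1 CPM only in siATF4 Srf replicate 2, at 1.37 CPM. *CXCL2*, a ligand of the neutrophil receptor CXCR2, was at 10.6 and 11.1 CPM in siATF4 DMSO and 1.74 and 2.33 CPM in siATF4 Srf libraries, a change of -2.17 ± 0.17. The siCtrl libraries had 2.16 and 2.55 CPM (DMSO) and 0.665 and 1.22 CPM (Sorafenib), so that the siATF4 Srf libraries were near the level of DMSO-treated siCtrl cells.

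*IL11*, a cytokine of the IL-6 family, fell from 24.6 and 22.6 to 5.75 and 6.74 CPM in siATF4 cells, a change of -1.84 ± 0.15, and stood at 3.43 and 2.91 CPM (DMSO) and 2.68 and 2.36 CPM (Sorafenib) in siCtrl cells (difference -1.56 ± 0.22, limma adjusted p = 0.000124). In siY/T cells *IL11* changed by -1.66 ± 0.15, from 6.69 and 4.395 to 1.28 and 1.47 CPM, so its fall was not particular to siATF4 cells. The median of the list in siY/T cells was -0.18. *LIF*, of the same family, fell from 42.9 and 37.1 to 15.0 and 14.9 CPM, and *CXCL5* from 22.1 and 19.8 to 6.88 and 7.58 CPM. *CCL2*, the monocyte attractant, changed by -0.75 ± 0.06 without and by -1.39 ± 0.06 with ATF4. It thus fell less in siATF4 cells, and that difference of 0.64 ± 0.09 became 0.57 and lost its call with quantile normalization.

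Of the matrix proteases and the plasminogen system, *MMP1*, *MMP10* and *PLAUR* fell and *TIMP3* rose among 11 tested members. *MMP1*, the interstitial collagenase, was at 6173 and 5446 CPM in siATF4 DMSO and 1449 and 1473 CPM in siATF4 Srf libraries, and at 799 and 748 CPM (DMSO) and 175 and 196 CPM (Sorafenib) in the siCtrl libraries. Each treatment's siATF4 libraries were above those of siCtrl cells, and the changes of -1.99 ± 0.12 and -2.06 ± 0.12 were not called different, at 0.07 ± 0.17. *PLAUR*, the urokinase receptor, fell in both, with changes of -0.85 ± 0.11 without and -0.99 ± 0.11 with ATF4. *TIMP3*, an inhibitor of metalloproteases, was under 1 CPM in all 4 siATF4 libraries. Its rise became 0.55 with a pseudocount of 1 and 0.55 with quantile normalization, and the fall of *MMP10* became -0.55 with a pseudocount of 1, all under the threshold. *MMP10* reached 1 CPM only in the siATF4 DMSO libraries, at 1.22 and 1.15 CPM, and in siY/T DMSO replicate 1, at 1.17 CPM.

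The genes of DNA replication and nucleotide supply showed the widest gap to siCtrl cells on the side of weaker falls. In siATF4 cells *RRM2* alone fell among 30 tested members and none rose, whereas 25 fell in siCtrl cells. The response was higher in siATF4 than in siCtrl cells for 26 of the 30 and lower for none, beside 4.31% and 7.97% of all genes tested. The exceptions were *CDT1*, *TK1*, *CCNE1* and *RRM2*, of which *CCNE1* passed with quantile normalization at 0.62 and *RRM2* without siATF4 Srf replicate 2 at 0.58. The median change was 0.02 without and -0.89 with ATF4.

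*MCM10*, which helps load the replicative polymerases, was at 97.3 and 104 CPM in siATF4 DMSO and 82.2 and 83.8 CPM in siATF4 Srf libraries. The siCtrl libraries had 106 and 104 CPM with DMSO, close to the siATF4 level, and 33.2 and 34.6 CPM with Sorafenib. Of these 8 libraries the 2 siCtrl Srf libraries were thus the only low ones, and the responses differed by 1.34 ± 0.10 (limma adjusted p = 1.94e-06). *CLSPN*, a mediator of the replication checkpoint, gave 145 and 153 CPM (DMSO) and 138 and 137 CPM (Sorafenib) in siATF4 cells and 149.8 and 155 CPM (DMSO) and 55.2 and 59.1 CPM (Sorafenib) in siCtrl cells, and *CDC6*, the helicase loader, 103 and 100.1 CPM (DMSO) and 85.7 and 79.3 CPM (Sorafenib) against 128 and 131 CPM (DMSO) and 45.2 and 48.1 CPM (Sorafenib).

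The helicase subunits *MCM3* and *MCM6*, whose E2F sites are printed above, changed by 0.36 ± 0.04 and 0.22 ± 0.05 in siATF4 cells and by -0.63 ± 0.04 and -0.92 ± 0.05 in siCtrl cells. *MCM3* was at 457 and 456 CPM in siATF4 DMSO and 585 and 587 CPM in siATF4 Srf libraries, and at 433 and 422 CPM (DMSO) and 271 and 282 CPM (Sorafenib) in siCtrl libraries. *PCNA*, the sliding clamp, changed by -0.25 ± 0.04 and -1.05 ± 0.04, and the factor *E2F1* by 0.14 ± 0.06 and -0.79 ± 0.06. *RRM2*, the small subunit of ribonucleotide reductase, fell in both, with a change of -0.73 ± 0.04 from 518 and 527 to 321 and 307 CPM without ATF4 and from 519 and 525 to 214 and 215 CPM with it.

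The 28 genes of mitosis and the spindle likewise showed no call in siATF4 cells, with a median change of 0.12, while 17 fell in siCtrl cells, with a median of -0.65. The response was higher without ATF4 for 22 of the 28, beside 4.31% of all genes tested. *TOP2A*, which untangles replicated chromosomes, was at 469 and 473 CPM in siATF4 DMSO and 603 and 578 CPM in siATF4 Srf libraries, and at 826 and 868 CPM (DMSO) and 621 and 588 CPM (Sorafenib) in siCtrl libraries. It was thus lower in siATF4 DMSO than in any other of these groups and near the siCtrl level with the drug. The spindle checkpoint kinase *BUB1B* went from 95.4 and 96.9 to 116 and 113 CPM without ATF4 and from 164 and 168 to 99.0 and 99.8 CPM with it, again lowest in siATF4 DMSO and highest in siCtrl DMSO.

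**Figure D3:**
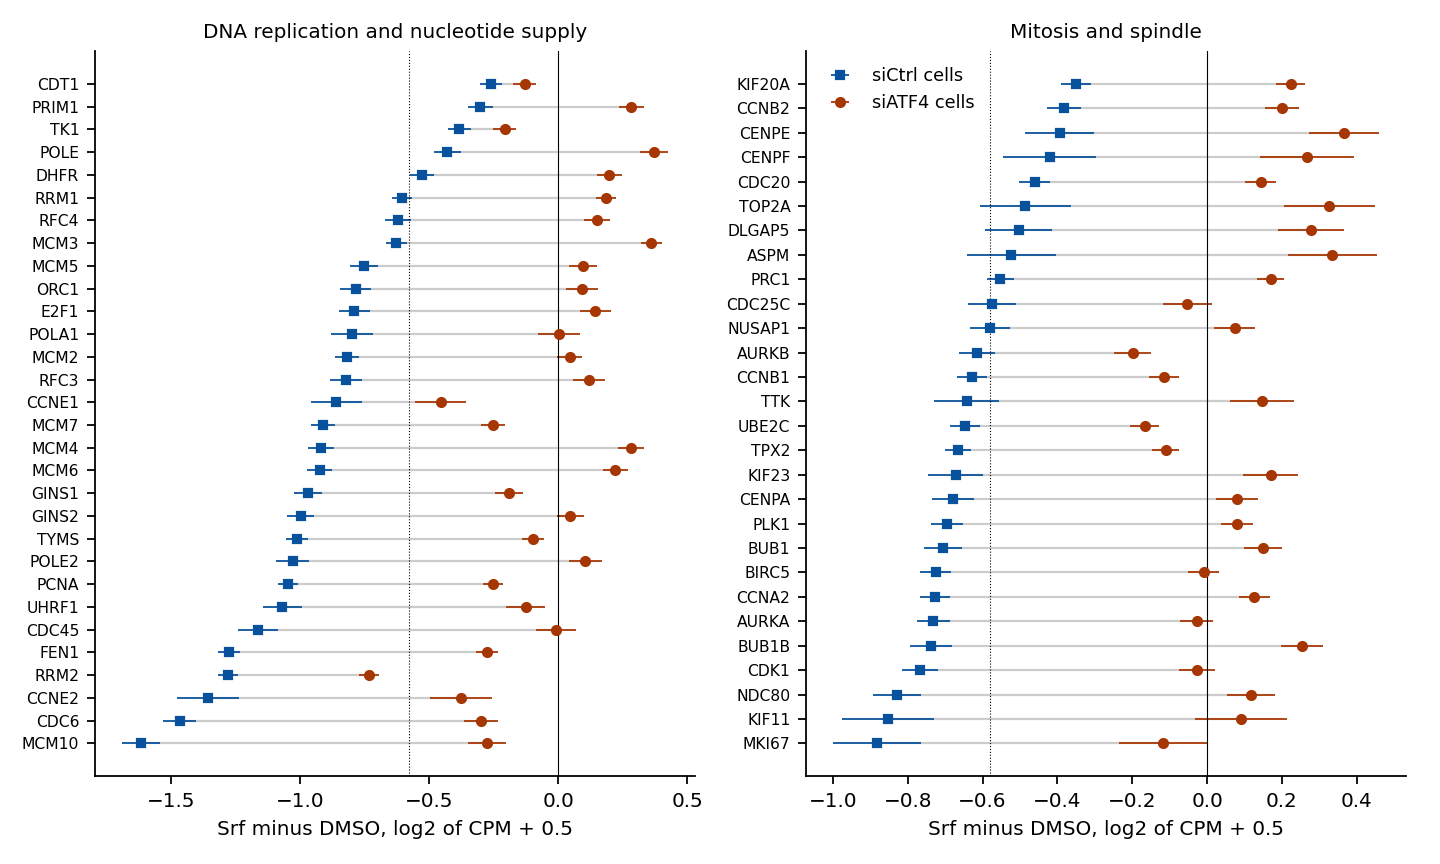
Change with Sorafenib (log2(CPM + 0.5), point with SE) of 30 replication genes and 28 mitosis genes in siATF4 cells (circles) and siCtrl cells (squares), sorted by the siCtrl value, with the dotted line at -0.58. Circles lie to the right of squares for every gene shown, *RRM2* being the only circle past the dotted line.

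Among 9 tested CDK inhibitors, G1 cyclins and their kinases *CDKN1A* alone fell and none rose in siATF4 cells. *CDKN1A*, which encodes the inhibitor p21, was at 107 and 97.6 CPM in siATF4 DMSO and 37.2 and 39.6 CPM in siATF4 Srf libraries, and at 15.6 and 15.2 CPM (DMSO) and 6.81 and 7.59 CPM (Sorafenib) in siCtrl libraries. Its change of -1.40 ± 0.10 was not called different from that of siCtrl cells, at -0.36 ± 0.15 (limma adjusted p = 0.067). *CDKN2C*, an inhibitor of the G1 kinases, changed by 0.43 ± 0.05 in siATF4 and by -0.43 ± 0.05 in siCtrl cells, and it had with *CCND1* and *CDK6* a higher response without ATF4.

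The genes of cholesterol and fatty acid synthesis fell in part in siATF4 cells, with 8 falls and no rise among 30 tested members against 16 falls in siCtrl cells, and medians of -0.36 and -0.6. *INSIG1*, the sterol sensor that holds SREBP back, was at 36.6 and 37.0 CPM in siATF4 DMSO and 14.9 and 12.9 CPM in siATF4 Srf libraries, and at 60.3 and 62.2 CPM (DMSO) and 20.4 and 19.1 CPM (Sorafenib) in siCtrl libraries. It fell in both, with changes of -1.38 ± 0.07 without and -1.61 ± 0.07 with ATF4.

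*IDI1*, of the isoprenoid branch, fell from 41.6 and 37.6 to 27.2 and 23.6 CPM in siATF4 cells, which is 0.80 ± 0.10 relative to the deeper fall in siCtrl cells from 71.7 and 68.7 to 26.4 and 25.2 CPM. That fall of *IDI1*, a change of -0.63 ± 0.07, lost its call without siATF4 DMSO replicate 1 (-0.56) and without siATF4 Srf replicate 2 (-0.53). The desaturases *FADS1* and *FADS2* fell too, with changes of -0.79 ± 0.04 and -0.66 ± 0.07 in siATF4 cells. *FASN*, fatty acid synthase, also had a higher response without ATF4 and *SREBF1*, the gene of SREBP1, a lower one, at -0.79 ± 0.09, the latter going from 106 and 104 to 85.6 and 85.0 CPM in siATF4 cells and from 163 and 162 to 225 and 230.4 CPM in siCtrl cells.

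None of the 21 tested genes of ER chaperones and the unfolded protein response was called in siATF4 cells, beside 5.68% rises and 2.95% falls over all genes. There 15 of them changed by less than 0 and the median was -0.13, against -0.14 in siCtrl cells. *HSPA5*, the main ER chaperone BiP, was at 931 and 895 CPM in siATF4 DMSO and 822 and 821 CPM in siATF4 Srf libraries, a change of -0.15 ± 0.04. *HERPUD1*, of the ER degradation machinery, whose promoter match is printed above, went from 98.6 and 95.1 to 72.9 and 71.4 CPM without ATF4 and from 85.8 and 81.6 to 119 and 117 CPM with it. The opposite signs gave a difference of -0.92 ± 0.07 (limma adjusted p = 1.75e-06), and the kinase gene *ERN1* had the only other called difference, at -0.67 ± 0.13, which quantile normalization brought to -0.44.

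Among 13 heat shock chaperones *HSPA1A* and *HSPA1B* fell and none rose. *HSPA1B* went from 271 and 252 to 149 and 155 CPM in siATF4 cells, a change of -0.78 ± 0.04, and from 354 and 339 to 282 and 288 CPM in siCtrl cells. *HSPA1A* and *HSPA1B* are near-identical copies, and the authors dropped reads that mapped to several places, so the values of both are uncertain. *HSPH1* and *HSP90AA1*, cytosolic chaperones, changed by -0.01 ± 0.07 and -0.22 ± 0.06 without ATF4 and by -0.85 ± 0.07 and -0.92 ± 0.06 with it, and both differences were called.

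Of 30 tested genes of the ferroptosis pathway, iron-dependent death by lipid peroxidation, *HMOX1* and *SAT1* fell in siATF4 cells, and the median was -0.04 in both siATF4 and siCtrl cells. *HMOX1*, haem oxygenase, was at 440.3 and 387 CPM in siATF4 DMSO and 138 and 154 CPM in siATF4 Srf libraries, a change of -1.498 ± 0.09. The siCtrl libraries had 98.5 and 92.4 CPM (DMSO) and 89.9 and 95.7 CPM (Sorafenib), so that every siATF4 library was above them, and the responses differed by -1.46 ± 0.13 (limma adjusted p = 5.65e-06). *SAT1*, which acetylates spermine and spermidine, went from 41.6 and 37.1 to 14.2 and 14.6 CPM without ATF4 and from 7.44 and 7.26 to 10.0 and 9.50 CPM with it, a difference of -1.80 ± 0.10.

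*GPX4*, the peroxidase that removes lipid peroxides, was at 225 and 221 CPM in siATF4 DMSO and 213 and 228 CPM in siATF4 Srf libraries, with overlapping groups and a change of -0.02 ± 0.05. *TFRC*, the transferrin receptor, changed by -0.26 ± 0.07 without ATF4 and by -1.25 ± 0.07 with it, a called difference. *NFE2L2*, which encodes NRF2, changed by -0.38 ± 0.07 in siATF4 cells.

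Of 20 tested NRF2 targets, *ABCC2* and *ABCC3* rose and *HMOX1* fell in siATF4 cells. *ABCC2*, an export pump for conjugates, went from 14.3 and 11.6 to 26.7 and 24.9 CPM, a rise of 0.98 ± 0.08, and was at 45.3 and 43.9 CPM (DMSO) and 54.9 and 53.9 CPM (Sorafenib) in siCtrl cells. Its response was 0.69 ± 0.12 higher without ATF4, which became 0.54 without siATF4 DMSO replicate 2. *ABCC3*, a related pump, rose by 0.60 ± 0.10, close to the threshold, and lost its call with TMM scaling, with a pseudocount of 1, with quantile normalization and without siATF4 DMSO replicate 2, where the values were 0.58, 0.54, 0.47 and 0.50.

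Of 21 tested YAP/TAZ targets, *ANKRD1*, *RBMS3* and *MYOF* rose and *NT5E* fell in siATF4 cells, with medians of 0.25 in siATF4 and -0.02 in siCtrl cells. *ANKRD1*, an ankyrin repeat protein and a common readout of YAP and TAZ, was at 6.06 and 6.62 CPM in siATF4 DMSO and 17.2 and 17.6 CPM in siATF4 Srf libraries, a rise of 1.39 ± 0.15 (limma adjusted p = 7.64e-06). In siCtrl cells it was at 1.38 and 1.75 CPM (DMSO) and 0.887 and 1.119 CPM (Sorafenib), and the difference of the responses, 1.84 ± 0.21, was the highest among the called genes that averaged 5 CPM or more over these 8 libraries. *YAP1* itself changed by 0.16 ± 0.08 and *WWTR1*, the gene of TAZ, by 0.41 ± 0.09 in siATF4 cells.

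*CCN1* and *CCN2*, secreted matricellular targets of YAP and TAZ, gave no call in siATF4 cells, with changes of -0.08 ± 0.07 and -0.51 ± 0.08. *CCN2* was at 101.3 and 117 CPM in siATF4 DMSO and 71.2 and 81.8 CPM in siATF4 Srf libraries, all above the siCtrl libraries with 33.7 and 32.5 CPM (DMSO) and 11.2 and 12.2 CPM (Sorafenib). Its response was 0.95 ± 0.12 higher without ATF4 (limma adjusted p = 5.48e-05), and in siATF4 cells its fall passed the threshold without siATF4 DMSO replicate 1 (-0.62) or without siATF4 Srf replicate 2 (-0.61). *IGFBP3*, an IGF binding protein, had the remaining called difference of the list, at 1.18 ± 0.10.

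**Figure D4:**
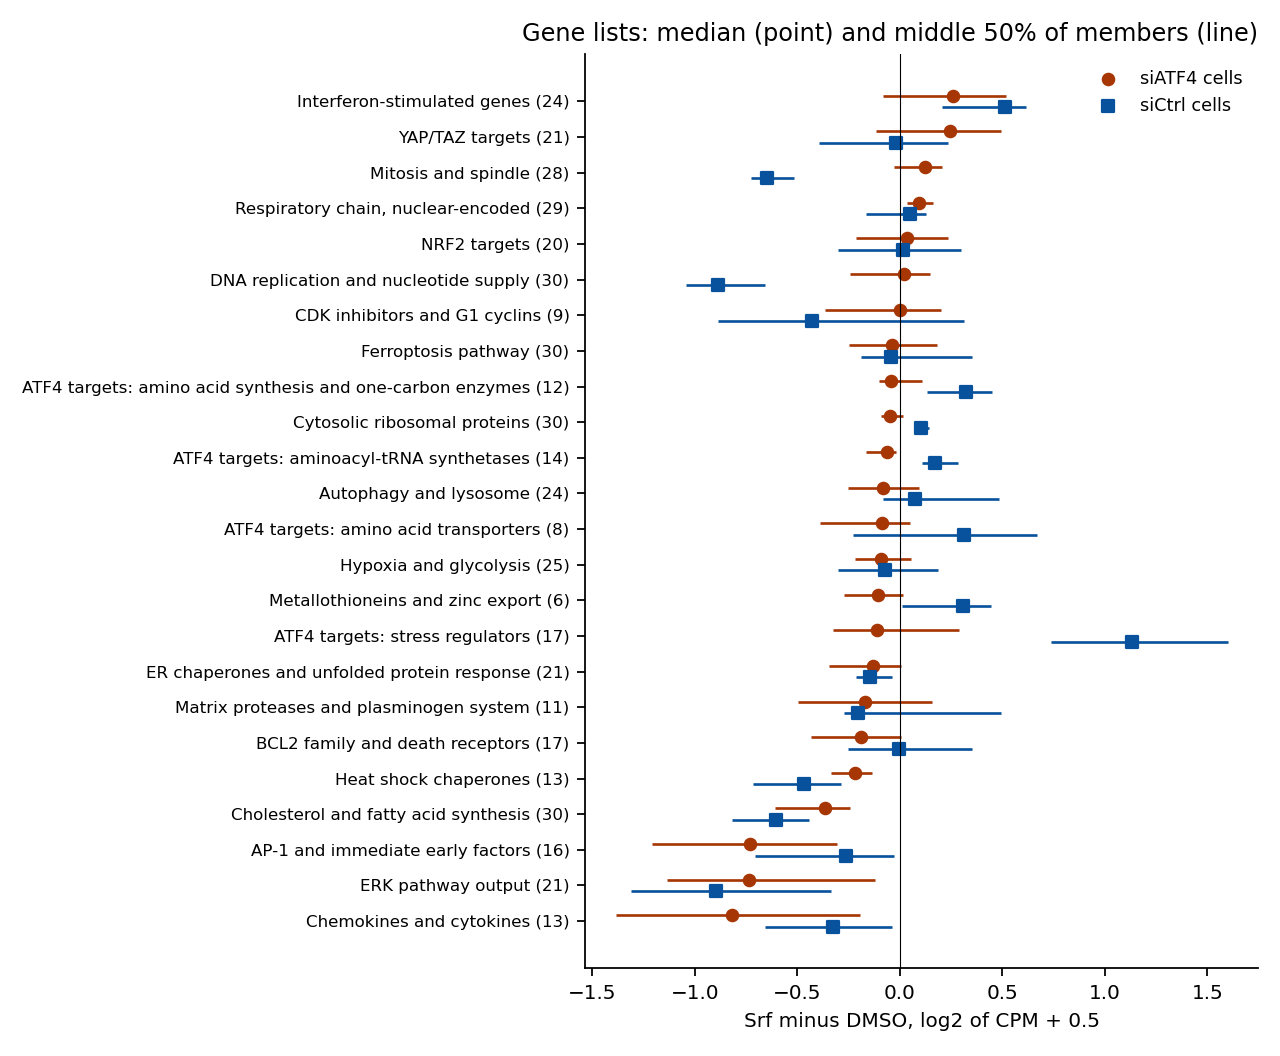
Median change with Sorafenib (point) and range of the middle 50% of members (line), as log2(CPM + 0.5), for the gene lists with at least 5 tested members in siATF4 cells (circles) and siCtrl cells (squares), with the number tested in parentheses. The widest gaps are those of the stress regulators (-0.11 against 1.14), replication genes (0.02 against -0.89) and mitosis genes (0.12 against -0.65), while chemokines, ERK pathway genes and AP-1 factors lie lowest in siATF4 cells.

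The 10 largest rises in siATF4 cells, among called genes that averaged 5 CPM or more over the 4 siATF4 libraries, were those of *PPL*, *OLFML2A*, *SPNS2*, *GPNMB*, *CGNL1*, *GPRC5B*, *ERBB3*, *ADRA1B*, *PPM1H* and *COL21A1*. *PPL*, the plaque protein periplakin, was at 39.3 and 34.5 CPM in siATF4 DMSO and 242 and 224 CPM in siATF4 Srf libraries, a rise of 2.65 ± 0.07 (limma adjusted p = 2.29e-10). It also rose in siCtrl cells, from a higher start of 411 and 397 CPM to 1211 and 1210.0 CPM, and the siATF4 response was 1.06 ± 0.10 higher. With Sorafenib, *PPL* in siATF4 cells thus stayed below the level of DMSO-treated siCtrl cells.

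*ERBB3*, a receptor of the EGF receptor family, went from 23.4 and 26.5 to 83.8 and 79.6 CPM in siATF4 cells, a rise of 1.69 ± 0.07, and from 70.8 and 70.6 to 134 and 132 CPM in siCtrl cells (difference 0.78 ± 0.09). *GPNMB*, a lysosomal and melanosomal glycoprotein, went from 5.14 and 3.66 to 20.3 and 17.5 CPM and from 8.71 and 9.01 to 48.6 and 47.0 CPM. *SPNS2*, the exporter of sphingosine 1-phosphate, rose by 2.08 ± 0.12 without and by 2.62 ± 0.12 with ATF4. Neither *GPNMB* nor *SPNS2* had a called difference, at -0.37 ± 0.17 and -0.54 ± 0.17, though both passed in some fits with a library left out, *GPNMB* without siATF4 DMSO replicate 2 at -0.59 and *SPNS2* without siATF4 DMSO replicate 1 at -0.76.

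*CGNL1*, a tight junction protein, rose from 4.35 and 4.54 to 17.6 and 17.3 CPM without ATF4, and *COL21A1*, a collagen chain, from 18.8 and 19.2 to 60.3 and 58.4 CPM. *OLFML2A* rose by 2.17 ± 0.07, the orphan receptor *GPRC5B* by 1.75 ± 0.09, the adrenoceptor *ADRA1B* by 1.67 ± 0.09 and the phosphatase *PPM1H* by 1.63 ± 0.07. All of these genes rose in siCtrl cells too, and the differences were called for each of the 6, at 0.60 for *OLFML2A*, 0.92 for *CGNL1*, 0.65 for *GPRC5B*, 0.61 for *ADRA1B*, 1.02 for *PPM1H* and 0.74 for *COL21A1*. Those of *OLFML2A*, *GPRC5B* and *ADRA1B* fell under 0.58 with a pseudocount of 1, and that of *OLFML2A* also without siATF4 DMSO replicate 2 (0.55), siATF4 Srf replicate 1 (0.53), siCtrl DMSO replicate 2 (0.56) or siCtrl Srf replicate 1 (0.57).

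The 10 largest falls under the same rule were those of *KRTAP2-3*, *SHISA2*, the carboxypeptidase M gene *CPM*, *CXCL2*, *STC1*, *MMP1*, *TMEM156*, *ANGPTL4*, *IL11* and *FAM86B1*. *SHISA2*, which retains receptors of the WNT and FGF pathways in the ER, was at 126 and 117 CPM in siATF4 DMSO and 19.1 and 18.3 in siATF4 Srf libraries, a change of -2.67 ± 0.08 (limma adjusted p = 4.34e-10), and at 99.9 and 90.4 with DMSO and 28.8 and 29.1 with Sorafenib in siCtrl libraries. *STC1*, a secreted glycoprotein related to *STC2*, went from 137 and 111 to 29.6 and 27.1 without ATF4 and from 17.9 and 17.9 to 6.67 and 6.66 with it. *ANGPTL4*, an inhibitor of lipoprotein lipase, went from 191 and 169 to 42.1 and 48.8 and from 72.7 and 67.8 to 24.2 and 26.2.

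The carboxypeptidase M gene *CPM* changed by -2.18 ± 0.09 in siATF4 cells and by -0.91 ± 0.09 in siCtrl cells, and *TMEM156* by -1.98 ± 0.09 and -1.29 ± 0.09, all of them falls. *KRTAP2-3* and *FAM86B1* belong to families of near-identical copies, so their reads are uncertain. *KRTAP2-3* fell from 13.99 and 16.2 to 0.683 and 0.899 CPM without ATF4 and was at 1 or fewer in all siCtrl libraries, and its called difference was lost with edgeR and DESeq2 on whole reads. *KRTAP2-3* reached 1 CPM only in the siATF4 DMSO libraries, so the filter let it in through the group where it was high. *FAM86B1* went from 11.0 and 12.2 to 3.58 and 3.85 in siATF4 cells and stayed at 4.23 and 3.86 with DMSO and 4.31 and 4.36 with Sorafenib in siCtrl cells.

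**Figure D5:**
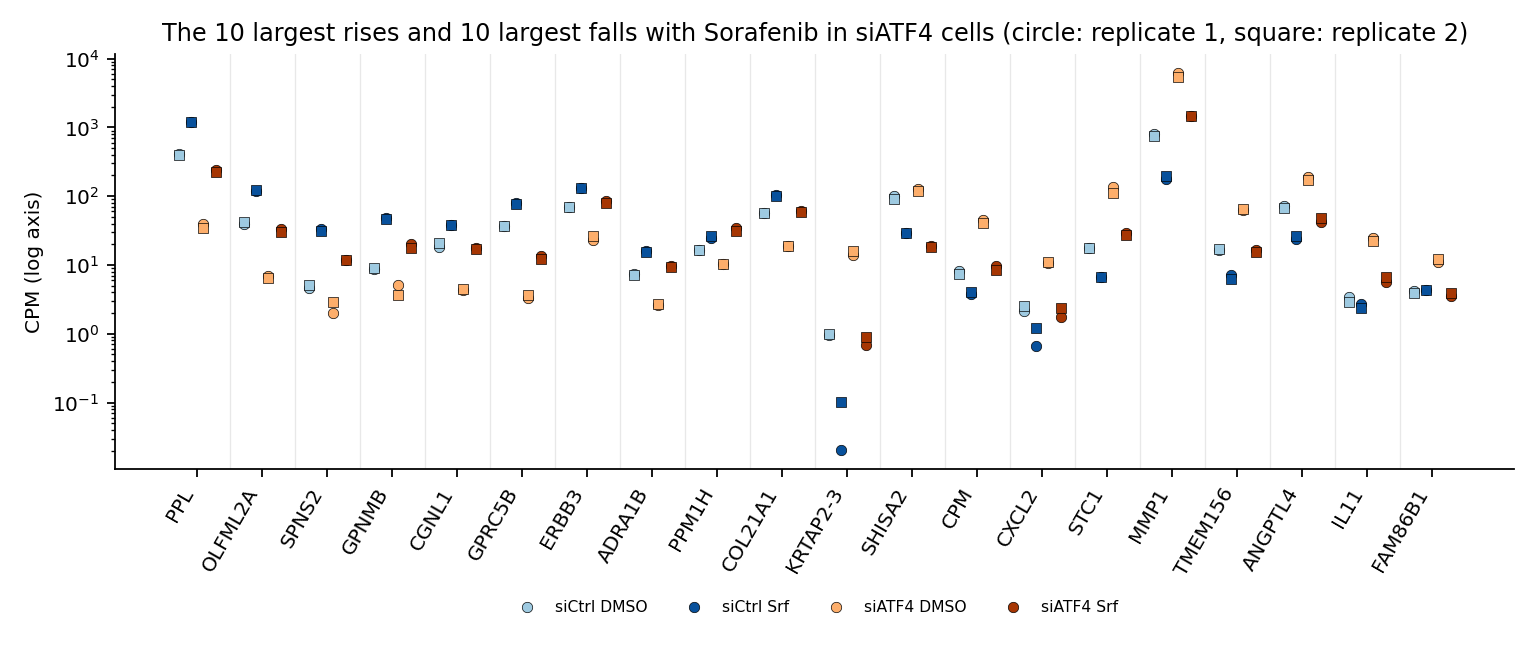
CPM (log axis) in the siCtrl DMSO, siCtrl Srf, siATF4 DMSO and siATF4 Srf libraries of the 10 genes with the largest rises (left) and the 10 with the largest falls (right) in siATF4 cells, with a circle for replicate 1 and a square for replicate 2. The siATF4 DMSO points are the lowest of the 4 groups for the 10 rises, and the highest for the 10 falls.

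The largest differences between the responses, among called genes that averaged 5 CPM or more over the 8 siATF4 and siCtrl libraries, were those of *DDIT4*, *CEBPB*, *SESN2*, *CHAC1*, *KDM6B* and *SAT1* on the lower side and of *ANKRD1*, *EFHB*, *PPME1*, *BDNF*, *MCM10* and *CLSPN* on the higher side. *KDM6B*, a histone H3K27 demethylase, went from 20.3 and 18.8 to 11.1 and 11.2 CPM without ATF4 and from 12.9 and 14.2 to 27.8 and 29.4 CPM with it. *PPME1*, a methylesterase of the phosphatase PP2A, went from 241 and 287 to 452 and 467 CPM in siATF4 cells and from 466 and 475 to 271 and 279 CPM in siCtrl cells. *BDNF*, a neurotrophin, went from 7.97 and 8.91 to 16.8 and 16.7 CPM and from 9.27 and 8.77 to 6.17 and 6.33 CPM, and *EFHB* from 2.25 and 2.59 to 6.69 and 5.50 CPM and from 11.5 and 11.7 to 7.66 and 7.35 CPM. *KDM6B*, *PPME1* and *EFHB* were thus called in opposite directions in siATF4 and siCtrl cells, while the change of *BDNF* in siCtrl cells, -0.50 ± 0.09, was under the threshold.

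Among 17 tested genes of the BCL2 family and death receptors *BCL2A1* alone fell and none rose, beside 2.95% and 5.68% of all genes tested. *MCL1*, an anti-apoptotic member, was at 153 and 150.0 CPM in siATF4 DMSO and 110.1 and 107 CPM in siATF4 Srf libraries, a change of -0.48 ± 0.04 that did not reach the threshold. *BBC3*, the pro-apoptotic PUMA, changed by -0.12 ± 0.10 without and by 1.10 ± 0.10 with ATF4 (difference -1.22 ± 0.14, limma adjusted p = 2.83e-05). *PMAIP1*, the related NOXA, changed by -0.49 ± 0.10 and 0.35 ± 0.10, and its difference was called too. *BCL2A1* was at 1.26 and 1.27 CPM in siATF4 DMSO and 0.114 and 0.150 CPM in siATF4 Srf libraries. It was under 1 CPM in every library outside siATF4 DMSO. The filter thus let *BCL2A1* in through the group where it was high, and its fall is not independent of that.

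Of 24 tested interferon-stimulated genes *IFIT1*, *IFIT2*, *OAS1* and *DDX60* rose and *ISG20* and *IRF7* fell in siATF4 cells, where the median was 0.26, against 8 rises, no fall and a median of 0.51 in siCtrl cells. The rise of *DDX60* fell under the threshold with quantile normalization (0.56) and without siATF4 Srf replicate 1 (0.57). *IFIT2*, an antiviral RNA-binding protein, went from 1.61 and 1.505 to 4.001 and 4.62 CPM without and from 2.74 and 3.88 to 7.72 and 7.75 CPM with ATF4. *IFIT1* went from 0.214 and 0.218 to 1.18 and 1.09 CPM and from 2.67 and 3.15 to 13.0 and 13.1 CPM, and its called difference of -0.80 ± 0.14 turned to 0.21 with edgeR and 0.23 with DESeq2 on whole reads. *IRF7*, the factor that amplifies the interferon response, went from 3.51 and 3.39 to 1.69 and 1.52 CPM in siATF4 cells and from 2.48 and 3.02 to 3.69 and 3.81 CPM in siCtrl cells.

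Among 24 tested genes of autophagy and the lysosome *SQSTM1* and *ULK1* fell and none rose in siATF4 cells. *SQSTM1*, the cargo receptor p62, went from 894 and 939 to 524 and 553 CPM without and from 441 and 426 to 636 and 622 CPM with ATF4, a difference of -1.30 ± 0.06 (limma adjusted p = 1.23e-07). *ULK1*, the kinase that starts autophagy, went from 103 and 95.0 to 48.9 and 52.4 CPM and from 57.2 and 52.7 to 65.5 and 67.1 CPM. *MAP1LC3A* and *WIPI1* had the other lower responses of the list.

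Of 25 tested genes of hypoxia and glycolysis *ENO2* rose and *ANGPTL4* fell in siATF4 cells, near the 5.68% and 2.95% of all genes tested. *VEGFA* had the only called difference, at -0.59 ± 0.08, which fell under the threshold without siATF4 DMSO replicate 1 (-0.57), siATF4 Srf replicate 1 (-0.57), siCtrl DMSO replicate 1 (-0.53) or siCtrl Srf replicate 2 (-0.57). *ENO2*, neuronal enolase, rose from 45.5 and 44.3 to 94.0 and 94.0 CPM without ATF4 and from 24.5 and 27.5 to 46.0 and 45.8 CPM with it. None of 29 nuclear genes of the respiratory chain and none of 30 genes of cytosolic ribosomal proteins was called in siATF4 or siCtrl cells. The medians were 0.09 and 0.05 for the respiratory chain and -0.05 and 0.10 for the ribosomal proteins. Among 6 metallothionein and zinc genes *MT2A* fell, from 593 and 545 to 252 and 297 CPM, in siATF4 cells, and its difference from siCtrl cells lost its call without siATF4 Srf replicate 1, at -0.57.

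Of 9 tested epithelial and mesenchymal markers, the matrix protein genes *FN1* and *SPARC*, listed as mesenchymal, rose in siATF4 cells and none fell. By sign alone, 7 changed by more than 0 and 2 by less. *FN1*, fibronectin, went from 18.8 and 22.2 to 41.9 and 42.4 CPM, a rise of 1.03 ± 0.06, and from 53.4 and 53.0 to 77.8 and 79.5 CPM in siCtrl cells, a change of 0.56 ± 0.06. *SPARC* went from 382 and 397 to 636 and 621 CPM, a rise of 0.69 ± 0.04. The mesenchymal marker *VIM* went from 2238 and 2130 to 1952 and 1974 CPM in siATF4 cells. *ZEB1*, also mesenchymal, went from 26.1 and 27.0 to 26.5 and 23.0 CPM. The epithelial keratin gene *KRT8* changed by 0.48 ± 0.05, under the threshold. The epithelial cadherin gene *CDH1* stayed under 1 CPM in the 4 siATF4 libraries and reached 6.35 and 6.02 CPM in the siCtrl Srf libraries, and the difference of the responses was -1.91 ± 0.24 (limma adjusted p = 5.23e-05). At these few reads the difference was -0.62 with edgeR and -0.56 with DESeq2 on whole reads and was not called, and both called a rise of *CDH1* in siATF4 cells, at 2.31 and 2.36 on the log2 scale.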

How the data were processed

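RNA-seq of HLE cells was analysed in 12 libraries, 2 for each of 6 groups defined by siRNA and treatment. Single-end reads were aligned by the authors to hg19 (STAR, unique hits only), assigned to RefSeq mRNA exons by QuasR, and deposited as CPM. Whether strand was used is not stated, so antisense partners cannot be told apart. The deposited CPM gave whole reads in all libraries (100.0% of values within 0.001 of a whole number), 41408348 to 53619732 per library.

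A gene was tested when 2 or more libraries reached 1 CPM (13515 of 26258). A gene that passed through a single group where it was high has a change that is not independent of this filter. The test was that of limma (version 3.58.1, R 4.3.3) on log2(CPM + 0.5), fitted over all 12 libraries with a mean for each group, so that the groups shared an estimate of the spread. It was two-sided. Fold changes on this scale understate the change of genes with low values. The responses in siATF4 and in siCtrl cells were called at an unadjusted P under 0.05 and an absolute change of at least 0.58, after the thresholds of the study's methods, and the difference between the responses at a Benjamini-Hochberg adjusted P under 0.05 and the same size. The study's own test, edgeR, needs counts, so edgeR 4.0.16 and DESeq2 1.42.0 were run on the recovered whole reads as alternatives. Other alternatives were TMM and quantile scaling, pseudocounts of 0.1 and 1, other filters, only the groups compared, a threshold of 1, a replicate block and leaving out each library. The fits were tested on simulated data. Figures were drawn with matplotlib 3.10.9 and tables with pandas 2.3.3 and numpy 2.4.6 (Python 3.11.15).

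Genes were named by rule: those the study names, the 10 largest rises and 10 largest falls in siATF4 cells averaging 5 CPM or more, the 6 largest differences from siCtrl cells in each direction, and up to 6 members of each list with the largest change. Further list members, among them those behind counts of 5 or fewer, were named after their values were seen. The gene lists and the comparison were chosen with earlier results of these data known, and lists are described by counts and medians with no set test. Promoter windows were taken from RefSeq on GRCh38.p14 and matched by gene symbol, 10711 of the genes tested having one. Some list members are not reported here.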

Additional observations from a re-analysis of the deposited data

Results flagged for a closer look

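The responses of siATF4 and siCtrl cells to Sorafenib differed, by the test of the difference itself, for 582 genes with a higher and 1077 with a lower response in siATF4 cells. The genes named by rule or in the report whose difference passed that test are given here with the siATF4 response minus the siCtrl response on the log2(CPM + 0.5) scale.

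For stress regulators, lower responses were seen in *NUPR1* at -2.48, *DDIT4* at -2.25, *CEBPB* at -2.13, *CHAC1* at -1.89, *SESN2* at -1.89, *TRIB3* at -1.78, *DDIT3* at -1.71, *GDF15* at -1.71, *ADM2* at -1.68 and *STC2* at -1.42. Among named genes of no such list, the lower responses were those of *KRTAP2-3* at -2.19, *KDM6B* at -1.83, *FAM86B1* at -1.61, *CPM* at -1.27, *ATF4* at -1.14, *SHISA2* at -0.97, *STC1* at -0.74 and *TMEM156* at -0.69. Among named genes of no such list, the higher responses were those of *EFHB* at 1.77, *PPME1* at 1.58, *BDNF* at 1.45, *CLSPN* at 1.29, *PPL* at 1.06, *PPM1H* at 1.02, *CGNL1* at 0.92, *ERBB3* at 0.78, *COL21A1* at 0.74, *GPRC5B* at 0.65, *WWTR1* at 0.61, *ADRA1B* at 0.61 and *OLFML2A* at 0.60. Of the epithelial and mesenchymal markers, lower responses belonged to *CDH1* at -1.91. A total of 4 ferroptosis pathway genes had a lower response, among them *SAT1* at -1.80 and also *CHAC1* and *HMOX1*, whose values stand under other lists. For ferroptosis pathway genes, higher responses were seen in *TFRC* at 0.99. Of the chemokines and cytokines, lower responses belonged to *IL11* at -1.56, *CXCL2* at -1.16, *CXCL1* at -0.94, *CXCL3* at -0.82 and *LIF* at -0.73. Chemokines and cytokines with a higher response were *CCL2* at 0.64. For NRF2 targets, lower responses were seen in *HMOX1* at -1.46 and *AKR1C3* at -1.38. Of the NRF2 targets, higher responses belonged to *ABCC2* at 0.69. ERK output genes with a lower response were *DUSP4* at -1.41, *EREG* at -0.70 and *IER3* at -0.61.

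For ERK output genes, higher responses were seen in *CCND1* at 1.19, *ETV1* at 0.97, *ETV5* at 0.91, *SPRY4* at 0.65 and *FOSL1* at 0.64. Of the BCL2 family members and death receptors, lower responses belonged to *BCL2A1* at -1.40, *BBC3* at -1.22 and *PMAIP1* at -0.85. Autophagy and lysosome genes with a lower response were *SQSTM1* at -1.30, *ULK1* at -1.23, *MAP1LC3A* at -0.96 and *WIPI1* at -0.77. For interferon-stimulated genes, lower responses were seen in *IRF7* at -1.30, *ISG20* at -1.27 and *IFIT1* at -0.80. Of the amino acid transporters, lower responses belonged to *SLC7A11* at -1.26 and *SLC6A9* at -0.91. AP-1 and immediate early factors with a lower response were *JUNB* at -1.17, *NR4A2* at -0.98, *FOSB* at -0.96 and *KLF2* at -0.61. For amino acid enzymes, lower responses were seen in *CBS* at -1.10 and *MTHFD2* at -0.98. Of the ER chaperones, lower responses belonged to *HERPUD1* at -0.92 and *ERN1* at -0.67. Aminoacyl-tRNA synthetases with a lower response were *CARS1* at -0.80. For lipid synthesis genes, lower responses were seen in *SREBF1* at -0.79. Of the lipid synthesis genes, higher responses belonged to *IDI1* at 0.80 and *FASN* at 0.63.

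Metallothioneins with a lower response were *MT2A* at -0.69, *MT1X* at -0.68 and *MT1F* at -0.61. For hypoxia genes, lower responses were seen in *VEGFA* at -0.59. Of the CDK inhibitors and G1 cyclins, higher responses belonged to *CDKN2C* at 0.85 and *CDK6* at 0.69. Heat shock chaperones with a higher response were *HSPH1* at 0.84 and *HSP90AA1* at 0.71. For mitosis genes, higher responses were seen in *BUB1B* at 0.99, *ASPM* at 0.86, *TOP2A* at 0.81, *DLGAP5* at 0.78 and *CENPE* at 0.76. Of the DNA replication genes, higher responses belonged to *MCM10* at 1.34, *CDC6* at 1.17, *MCM6* at 1.15, *MCM3* at 0.99, *CCNE2* at 0.98, *E2F1* at 0.93, *POLE* at 0.80 and *PCNA* at 0.79. YAP/TAZ targets with a higher response were *ANKRD1* at 1.84, *IGFBP3* at 1.18 and *CCN2* at 0.95. For hepatocyte markers, higher responses were seen in *FGB* at 1.07. Groups of 2 libraries are too small for a test of single outlying libraries.

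Some of these calls were lost in other settings. With edgeR and with DESeq2 on whole reads, in that order, the uncalled differences were smaller, at -1.14 and -1.07 for *NUPR1*, -1.07 and -1.04 for *DUSP4*, -0.86 and -0.84 for *AKR1C3*, -0.62 and -0.56 for *CDH1*, -0.47 and -0.46 for *KLF2*, and -0.30 and -0.24 for *KRTAP2-3*. For *BCL2A1* (-1.49 and -1.24), *CXCL3* (-0.82 and -0.81) and *MT1F* (-0.70 and -0.70) the size stayed above 0.58 and the adjusted P was missed, as with DESeq2 for *CXCL1* (-1.30) and *EREG* (-0.71). Quantile normalization left uncalled the differences of *FOSB* at -0.64, *WWTR1* at 0.52, *CCL2* at 0.57, *FOSL1* at 0.55, *LIF* at -0.48, *STC1* at -0.52, *TMEM156* at -0.47, *GPRC5B* at 0.46, *OLFML2A* at 0.40, *MT1F* at -0.56, *KLF2* at -0.28, *EREG* at -0.39 and *ERN1* at -0.44. The difference of *MT1F* was also lost with pseudocounts of 0.1 (-0.68) and 1 (-0.52), with no filter (-0.61) and in 6 of 8 fits without 1 library (-0.48 to -0.64), and that of *KLF2* with a pseudocount of 0.1 (-0.52), with no filter (-0.61) and in 5 such fits (-0.47 to -0.62). That of *FOSB* was lost with no filter (-0.96), without siATF4 DMSO replicate 1 (-0.88), siATF4 Srf replicate 2 (-0.93), siCtrl DMSO replicate 1 (-0.91) or siCtrl Srf replicate 1 (-0.76), and that of *CXCL3* with a pseudocount of 0.1 (-0.83) and in 4 such fits (-0.62 to -0.76). For *WWTR1* it was lost without siATF4 Srf replicate 1 (0.56) or siCtrl Srf replicate 2 (0.57), and for *FASN* without siCtrl Srf replicate 1 (0.576).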

How the results depend on the processing

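Counts of calls depended most on the size of change asked for. With an adjusted P under 0.05 and a size of 1 or more, 154 genes rose and 94 fell in siATF4 cells, 394 rose and 103 fell in siCtrl cells, and the response was higher in siATF4 cells for 78 genes and lower for 240. With a filter of at least 5 CPM in 2 libraries, which leaves fewer genes to test, 710 genes had a lower response. All other counts stayed within 1.5 times those reported. Quantile normalization gave 552 rises and 457 falls in siATF4 cells (54.7% rises, against 65.8%), 1125 and 1025 in siCtrl cells (52.3% against 70.5%), and 723 higher and 810 lower responses (47.2% higher against 35.1%). Leaving out 1 library gave 739 to 872 rises and 383 to 431 falls in siATF4 cells, 1641 to 1692 rises and 692 to 735 falls in siCtrl cells, and 543 to 626 higher and 971 to 1122 lower responses. With 1 library left in a group, that library is assumed to vary like the others. Of 2188 recomputed values for the siATF4 response of single genes, 13 lost and 24 gained a call and none reversed, and of 2973 for the difference between responses, 85 lost and 22 gained a call. The difference for IFIT1 reversed, to 0.21 with edgeR and 0.23 with DESeq2, and the cause was not tested. With edgeR, 987 genes rose and 549 fell in siATF4 cells, and with DESeq2 948 and 542. No label ties libraries of the same replicate number. Deviations of same-numbered DMSO and Srf libraries correlated at -0.027 in siATF4 and -0.139 in siCtrl cells, and those of siCtrl and siATF4 libraries at 0.063 in DMSO and 0.304 in Sorafenib, so that a pairing did not hold for every pair of groups. The replicate block gave 768 rises and 399 falls in siATF4 cells, 1665 and 696 in siCtrl cells, and 585 higher and 1070 lower responses. A crossed pairing of the siCtrl libraries, added after seeing the data, gave 1665 rises and 696 falls there. The differences of NUPR1, DUSP4, KRTAP2-3 and BCL2A1, each near or under 1 CPM in some of the groups compared, were not called by the count tests.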
